A study of Homo sapiens with 4 samples.

Results

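The genes described here are 37 genes of macroautophagy, the route by which cells enclose cytoplasm in a double membrane and deliver it to the lysosome. Among the 37 are TMEM41B and VMP1, a pair of ER membrane proteins needed for it. The members were a list of core autophagy genes, and TMEM41B was selected on its measured level, which was lower with SF1–8 in these same libraries. For each symbol, the entry of the expression table that names it and has the highest mean count was used. All 37 symbols had an entry among the 62778 entries that name a gene. Of these members, 36 were among the 26167 genes that passed the filter on low counts, and MAP1LC3A was not.

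RNA was sequenced from K562, an established human erythroleukemia cell line, in a form that overexpresses the S34F mutant of the splicing factor U2AF1 (K562-U2AF1S34F). The comparison was between 2 libraries from cells given the solvent DMSO and 2 libraries from cells given SF1–8, an inhibitor of the UHM domain of U2AF1, at 30 μM for 48 h. All 4 libraries carried the overexpressed mutant, and no library without it was analysed here, so a response of wild-type cells cannot be set beside these values. The labels do not say that libraries of a group came from separate cultures, and p-values speak for these libraries only.

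Autophagy starts when the ULK1 kinase complex is released from control by nutrients and activates the class III PI3-kinase complex, which marks the forming membrane with the lipid PI3P. WIPI proteins read that lipid, ATG2 proteins carry lipid from the ER into the growing membrane, and the scramblases ATG9A, TMEM41B and VMP1 even out lipid between the leaflets of the membranes at both ends of this transfer. A conjugation system then attaches ATG8 proteins (the LC3 and GABARAP families) to the membrane, where cargo receptors such as SQSTM1 bind them. K562 cells are of erythroid character, and autophagy is known in that lineage for the removal of mitochondria from maturing red cells.

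The sequences before a RefSeq start site are shown for 3 genes, because TMEM41B and VMP1 act together in the ER and differed in this comparison, and because GABARAPL1 was the other member with a low level in both SF1–8 libraries. Each is the RefSeq sequence of GRCh38.p14 over the 250 bases before a start site, read 5′ to 3′ on the strand of the gene, at chr11:9314594-9314843 on the minus strand for TMEM41B, at chr17:59707404-59707653 on the plus strand for VMP1 and at chr12:10212627-10212876 on the plus strand for GABARAPL1. The entries of the expression table begin further upstream than these start sites, so that the VMP1 and GABARAPL1 windows lie wholly inside the entries whose levels are given and the TMEM41B window lies partly inside its entry. Capitals mark the letters TGACGTCA, the cyclic AMP response element.
TMEM41B: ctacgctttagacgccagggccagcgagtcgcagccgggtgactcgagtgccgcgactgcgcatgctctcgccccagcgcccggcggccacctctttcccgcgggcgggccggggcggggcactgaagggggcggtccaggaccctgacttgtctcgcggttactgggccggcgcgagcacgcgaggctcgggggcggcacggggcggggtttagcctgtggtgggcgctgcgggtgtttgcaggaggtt
VMP1: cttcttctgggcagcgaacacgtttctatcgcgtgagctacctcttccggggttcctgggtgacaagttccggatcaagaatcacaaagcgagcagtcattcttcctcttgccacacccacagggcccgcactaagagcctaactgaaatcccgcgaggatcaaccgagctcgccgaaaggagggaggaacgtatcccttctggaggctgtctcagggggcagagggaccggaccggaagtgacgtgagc
GABARAPL1: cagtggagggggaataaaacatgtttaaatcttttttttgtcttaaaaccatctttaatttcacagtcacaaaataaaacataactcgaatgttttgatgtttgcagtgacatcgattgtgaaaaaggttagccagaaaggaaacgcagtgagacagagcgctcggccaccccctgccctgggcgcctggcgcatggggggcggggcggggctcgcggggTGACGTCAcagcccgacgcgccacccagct
The TMEM41B sequence had a GC content of 73.2% and 32 CpG dinucleotides, against 58.0% and 17 in VMP1 and 51.6% and 15 in GABARAPL1. Both strands of the windows of the RefSeq table were searched for 4 motifs. Each window there has 300 bases, the 250 before a start site and the bases that follow. Of these windows, 39 belonged to 32 of the members. TGACGTCA was found in the GABARAPL1 window alone among them, starting 30 bases before the start site, and in 1.85% of all 35116 windows of the table. The E-box CACGTG was found in the windows of ATG3 and ATG14 and in 7.26% of all windows. Its extended form TCACGTGA, which contains CACGTG and is bound by TFEB and TFE3, was found in ATG3 and in 0.98% of all windows, and the forkhead motif GTAAACA in CALCOCO2 and in 3.42%. None of the 4 motifs was in the TMEM41B or VMP1 window. These are matches of letters, and binding was not measured.

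The counts summed to between 45522905 and 67554610 per library, with DMSO 1 the shallowest. They were taken as estimates, since how they were counted is not given in the sources used here. No separate counting error was computed, and the SD given for a level is the spread of the libraries. Erythroid markers were present throughout, with a summed level of 256.0 to 283.7 FPKM, and U2AF1 was at 11.4 to 12.0 FPKM. The 8 stromal cell markers summed to 12.2 FPKM in DMSO 1 and 5.75 FPKM in DMSO 2, against 2.99 FPKM in SF1–8 1 and 0.625 FPKM in SF1–8 2. In 7 of these 8 markers both SF1–8 libraries were below both DMSO libraries, where 20.0% of all genes tested had that pattern. LUM had a count of 0 in both SF1–8 libraries and DCN in SF1–8 2. Their part in the results below was not tested. The lymphoid and monocyte markers summed to 9.52 to 12.4 FPKM, most of it from PTPRC and LYZ, while CD3E was at 0.271 and 0.116 FPKM in DMSO, 0.0338 FPKM in SF1–8 1 and a count of 0 in SF1–8 2, and CD14 was at a count of 0 in DMSO 1 and at 0.0836 FPKM or less in the others.

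Most of the autophagy genes were expressed at similar levels in all 4 libraries, and TMEM41B and GABARAPL1 were the members that stood apart. By the quasi-likelihood test of edgeR (Benjamini-Hochberg adjusted), 0 of the 35 members tested other than TMEM41B had an adjusted p under 0.05, where 0.042% of all genes tested had one. GABARAPL1 was the 1 member of these with an unadjusted p under 0.05, where 4.33% of all genes had one, and 2.54% had one with a lower level in SF1–8. DESeq2 called GABARAPL1 and none of the other 34, where it called 0.652% of all genes for which it gave an adjusted p. Because TMEM41B was put in the list for this same contrast, it is left out of these counts and its values are given without a test. The median log2 fold change was 0.0085 over the 35 other members and -0.011 over all genes tested.

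**Figure D1:**
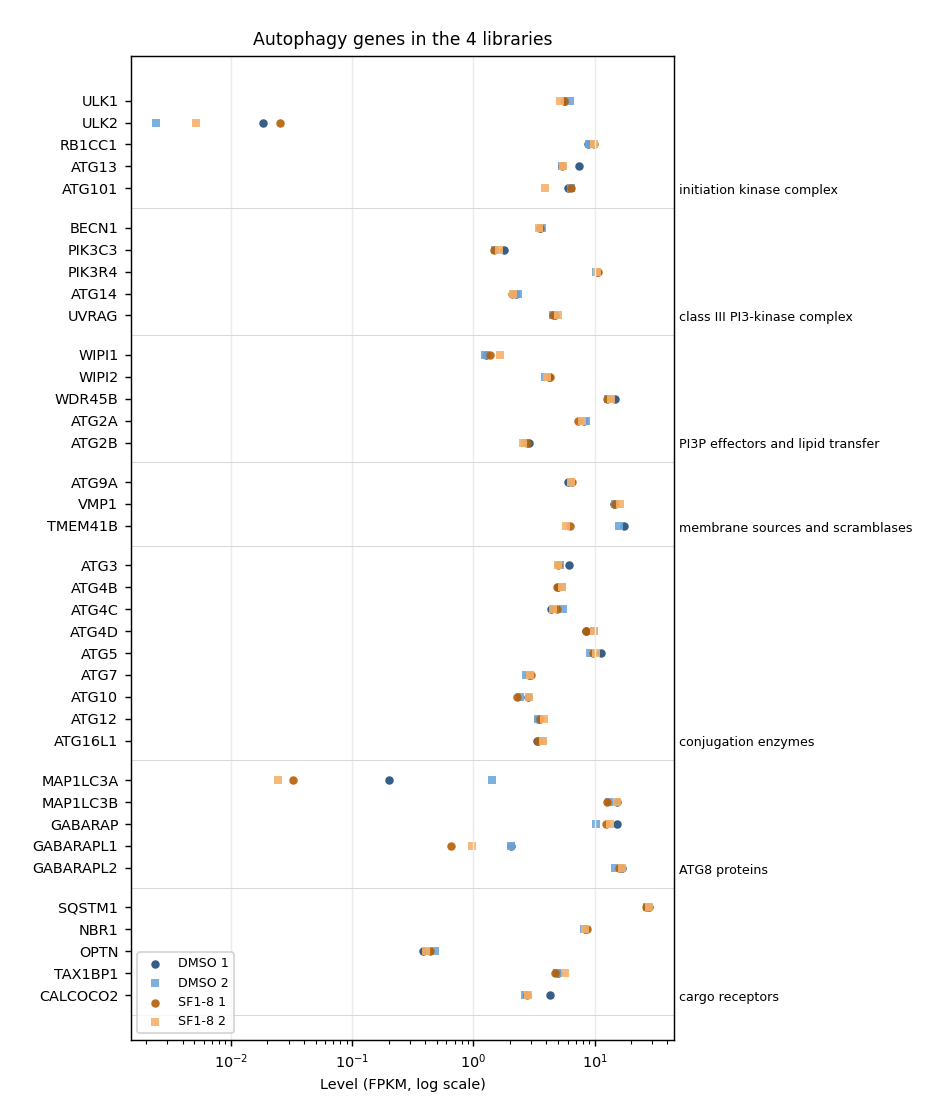
Level of each of the 37 members in FPKM on a log axis, with 1 point per library (blue, DMSO; orange, SF1-8; circles, replicate 1; squares, replicate 2), grouped by role. The points of most members lie together, whereas those of TMEM41B run from 17.5 in DMSO 1 to 5.85 in SF1-8 2 and those of GABARAPL1 from 2.04 to 0.661.

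TMEM41B, a multi-pass protein of the ER that scrambles phospholipids and is needed for autophagosome formation, was at 17.5 FPKM in DMSO 1 and 15.9 FPKM in DMSO 2, against 6.30 FPKM in SF1–8 1 and 5.85 FPKM in SF1–8 2. Both SF1–8 libraries were far below both DMSO libraries, and the libraries within each group lay close together. The group means were 16.7 ± 1.11 and 6.07 ± 0.318 FPKM (SD, n = 2 each), a 2.69-fold lower level by the estimated fold change from the counts, which was -1.43 on the log2 scale with a standard error of 0.0909. Across the 12 ways in which the data were processed, the fold change lay between -1.49 and -1.32 on the log2 scale.

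The TMEM41B entry lies at chr11:9280654-9314630 on the minus strand of GRCh38 and names no other gene. GENCODE version 29 lists 7 transcripts for the gene, 4 of them coding, and the longest encodes a protein of 291 residues from 8 exons. The value per gene sums these transcripts, and which of them were lower was not analysed here. In bulk RNA, less TMEM41B RNA per cell and fewer cells that express it cannot be told apart.

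VMP1, the partner scramblase with the same VTT domain fold, was at 14.5 FPKM in DMSO 1, 14.6 FPKM in DMSO 2, 14.7 FPKM in SF1–8 1 and 16.1 FPKM in SF1–8 2. In FPKM it was thus a little below TMEM41B in the DMSO libraries, and it did not share its lower values in the SF1–8 libraries. In counts, which are not corrected for entry length, VMP1 was above TMEM41B in DMSO, at 5757 and 8124 against 4323 and 5509. Its fold change was 0.10 on the log2 scale with a standard error of 0.0836 and a 95% interval from -0.11 to 0.32, and the adjusted p was 0.970 by edgeR's quasi-likelihood fit. The ratio of the TMEM41B level to the VMP1 level was 1.20 in DMSO 1 and 1.09 in DMSO 2, and 0.430 in SF1–8 1 and 0.363 in SF1–8 2. The VMP1 entry, at chr17:59707192-59842255 on the plus strand, also names MIR21, the microRNA gene that lies at its end, and GENCODE places the coding gene PTRH2 over it, so part of its count may belong to these.

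ATG9A, the scramblase of the vesicles that seed the autophagosome, was at 6.09, 6.44, 6.50 and 6.39 FPKM in DMSO 1, DMSO 2, SF1–8 1 and SF1–8 2, and the groups overlapped. Its entry is merged with that of ABCB6. Summed over ATG9A and VMP1, the level ran from 20.6 to 22.5 FPKM across the 4 libraries, and with TMEM41B included it was 38.1 and 37.0 FPKM in the DMSO libraries and 27.5 and 28.3 FPKM in the SF1–8 libraries. The other genes with a VTT domain are TMEM41A and TMEM64. TMEM41A was at 7.13 and 7.16 FPKM in DMSO and at 3.79 and 7.35 FPKM in SF1–8, so that its fold change of -0.33 on the log2 scale (SE 0.302) came from SF1–8 1 alone and was 0.06 without that library. TMEM64 was at 6.25 and 4.80 FPKM in DMSO and at 4.65 and 4.63 FPKM in SF1–8, with a fold change of -0.22 (SE 0.130) and an adjusted p of 0.970, the same as for TMEM41A, by edgeR's quasi-likelihood fit.

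**Figure D2:**
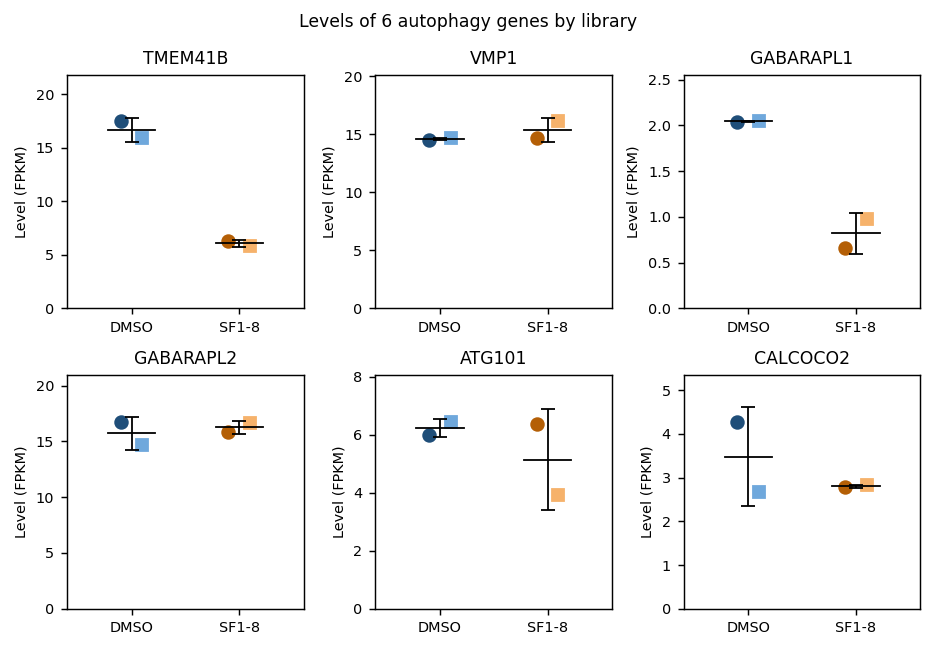
Level in FPKM of TMEM41B, VMP1, GABARAPL1, GABARAPL2, ATG101 and CALCOCO2 in each library, with bars for the mean and SD of the 2 libraries of a group (circles, replicate 1; squares, replicate 2). TMEM41B and GABARAPL1 were separated between groups, while 1 library stood apart in ATG101 (SF1-8 2, 3.91 FPKM) and in CALCOCO2 (DMSO 1, 4.28 FPKM).

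Among the 4 ATG8 genes tested, GABARAPL1 had the largest difference between groups. GABARAPL1 encodes a ubiquitin-like protein that is conjugated to the autophagosome membrane, and its RNA was at 2.04 FPKM in each DMSO library, 0.661 FPKM in SF1–8 1 and 0.980 FPKM in SF1–8 2. Both SF1–8 libraries were below both DMSO libraries, and the SF1–8 libraries differed from each other more than the DMSO libraries did. The fold change was -1.28 on the log2 scale with a standard error of 0.233 and a 95% interval from -1.88 to -0.69. The unadjusted p was 0.00246 and the adjusted p 0.638 by the quasi-likelihood test of edgeR (Benjamini-Hochberg adjusted), so it did not pass over all genes. With DESeq2 the adjusted p was 0.00227, and over the 12 ways of processing it ran from 0.00227 to 0.747, with DESeq2 the one that passed. The fold change was negative in all 12, from -1.58 to -0.75 on the log2 scale. The entry, at chr12:10212458-10223128 on the plus strand, names no other gene and overlaps no other coding gene.

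The other ATG8 genes were at higher levels. GABARAPL2, another protein of the GABARAP family, was at 16.8 and 14.7 FPKM in DMSO and at 15.8 and 16.7 FPKM in SF1–8. MAP1LC3B, which encodes the LC3 protein most used to follow autophagy, was at 15.5 and 13.2 FPKM in DMSO and at 12.6 and 15.2 FPKM in SF1–8. GABARAP was at 15.4 and 10.3 FPKM in DMSO and at 12.4 and 13.5 FPKM in SF1–8, and its entry is merged with those of CTDNEP1 and CLDN7. In all 3 the groups overlapped, with fold changes of 0.08, -0.01 and 0.05 on the log2 scale. GABARAPL1 was the rarest of the 4 that were tested, at 4.11% and 5.08% of the summed level of these 4 genes in DMSO 1 and DMSO 2 and at 1.59% and 2.11% in SF1–8 1 and SF1–8 2. Its ratio to GABARAPL2 was 0.122 and 0.139 in DMSO and 0.0417 and 0.0587 in SF1–8. MAP1LC3A did not pass the filter. The entry that the rule picked for it is an unstranded fragment at 0.203, 1.42, 0.0325 and 0.0247 FPKM in DMSO 1, DMSO 2, SF1–8 1 and SF1–8 2, and its other entry, which spans the gene, was at 0.0688 FPKM or less in every library.

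No gene of the initiation kinase complex passed the test, and most of their levels overlapped between groups. ULK1, the kinase itself, was at 5.75 and 6.22 FPKM in DMSO and at 5.62 and 5.15 FPKM in SF1–8. Its fold change was -0.13 (SE 0.104), in an entry that also names PUS1. A further entry that names ULK1 was at 3.03 and 2.09 FPKM in DMSO and at 2.35 and 1.84 FPKM in SF1–8. Its groups overlapped, with a fold change of -0.25. RB1CC1, the large scaffold also called FIP200, was at 8.76 and 9.04 FPKM in DMSO and at 9.84 and 9.89 FPKM in SF1–8. Its SF1–8 libraries were both higher, by 0.17 on the log2 scale (SE 0.0825), with an unadjusted p of 0.0870 and an adjusted p of 0.970 by edgeR's quasi-likelihood fit. ATG13, the adaptor that binds ULK1, was at 7.44 FPKM in DMSO 1 and between 5.40 and 5.48 FPKM in the other 3 libraries. ATG101, the partner of ATG13, was at 3.91 FPKM in SF1–8 2 and between 6.0 and 6.45 FPKM in the other 3, so that its fold change of -0.25 (SE 0.252) became 0.07 without SF1–8 2. ULK2, the second ULK kinase, was barely detected, at 0.0255 FPKM or less in each library, and its 95% interval from -2.78 to 4.13 on the log2 scale leaves its change unmeasured.

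The genes of the class III PI3-kinase complex were at nearly the same level in all libraries. PIK3R4, the regulatory subunit VPS15, was at 10.5, 10.2, 10.6 and 10.4 FPKM in DMSO 1, DMSO 2, SF1–8 1 and SF1–8 2. The catalytic subunit PIK3C3 was lower in FPKM, at 1.80, 1.52, 1.47 and 1.64 FPKM. BECN1, the core subunit Beclin 1, was at 3.56, 3.67, 3.58 and 3.47 FPKM in the same order. Neither group stood apart in any of these. FPKM depends on the length of the assembled entry, and the counts in DMSO 1 were 3263 for PIK3R4 and 1651 for PIK3C3. ATG14, which directs the complex to the site of autophagosome formation, was at 2.25 and 2.33 FPKM in DMSO and at 2.08 and 2.13 FPKM in SF1–8, with a fold change of -0.10 (SE 0.131). UVRAG, which takes the place of ATG14 in the endosomal form of the complex, was at 4.74 and 4.54 FPKM in DMSO and at 4.59 and 5.02 FPKM in SF1–8. The summed level of the 5 genes ran from 22.3 to 22.9 FPKM over the 4 libraries.

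The PI3P effectors and lipid transfer proteins gave a similar picture. WIPI1 was at 1.26 and 1.25 FPKM in DMSO and at 1.36 and 1.65 FPKM in SF1–8. Its fold change of 0.28 on the log2 scale (SE 0.187) was the highest among the members with more than a trace of RNA, and its 95% interval from -0.20 to 0.76 includes 0. WIPI2, which recruits the conjugation machinery, was at 3.93 to 4.33 FPKM. RNA of WDR45B, another WIPI protein, was at 12.8 to 14.7 FPKM, and the groups overlapped in both genes. ATG2A, the ATG2 lipid transfer gene with the higher RNA level, was at 8.13 and 8.56 FPKM in DMSO and at 7.32 and 7.84 FPKM in SF1–8. Its fold change was -0.11 (SE 0.0932). ATG2B was at 2.57 to 2.90 FPKM with overlapping groups.

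**Figure D3:**
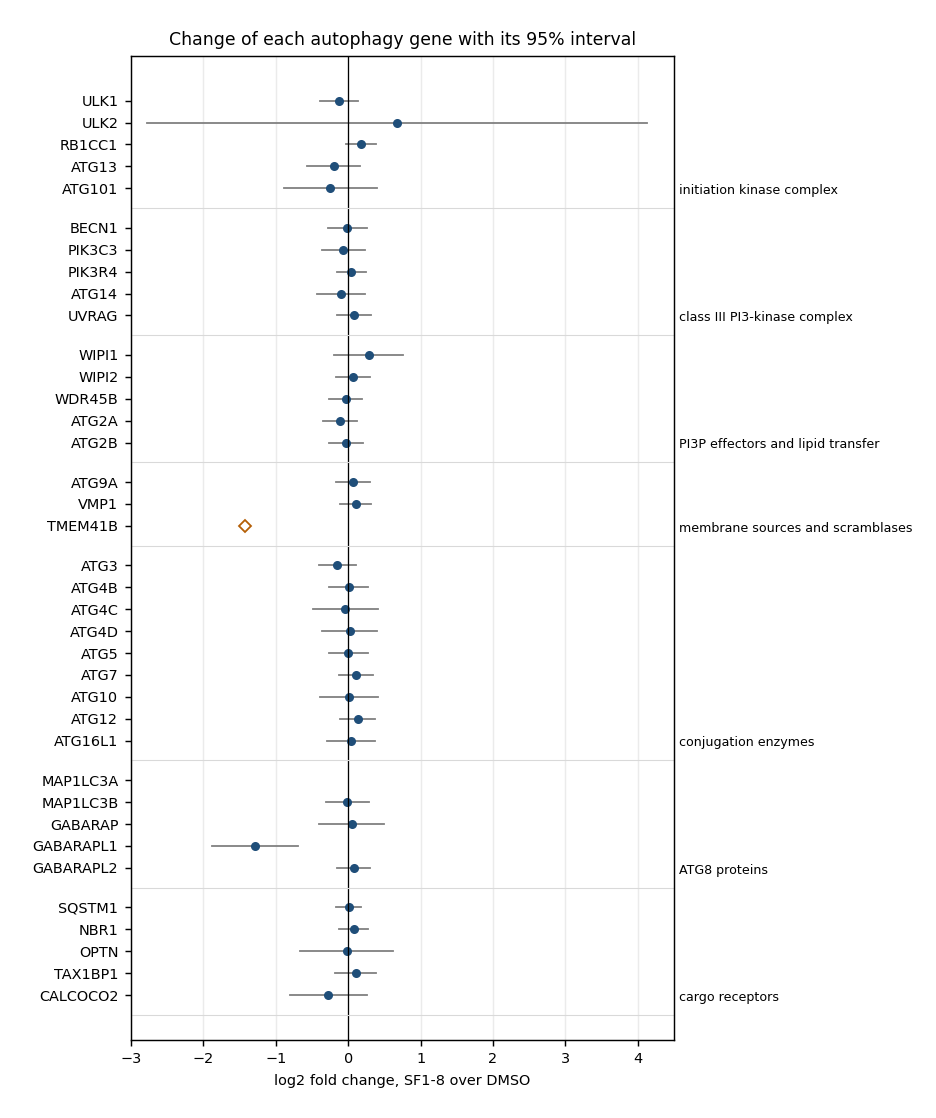
Fold change of each tested member on the log2 scale, SF1-8 over DMSO, with its 95% interval from edgeR's quasi-likelihood fit; TMEM41B is drawn as an open diamond with no interval because it was selected on this contrast, and MAP1LC3A was not tested. GABARAPL1 is the 1 interval that lies wholly to the left of 0, from -1.88 to -0.69, and that of ULK2 is the widest.

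The 9 conjugation enzymes had fold changes between -0.15 and 0.13 on the log2 scale. ATG5 and ATG4D were the highest in FPKM, at 9.16 to 11.3 FPKM and at 8.52 to 9.87 FPKM. ATG5 is joined to the ubiquitin-like protein ATG12, and the ATG4 proteases prepare and recycle ATG8 proteins. ATG3, the E2-like enzyme for ATG8 proteins, was at 6.11 and 5.16 FPKM in DMSO and at 4.96 and 4.99 FPKM in SF1–8, which gave the lowest of the 9 fold changes, -0.15 (SE 0.101). ATG12 was at 3.42 and 3.44 FPKM in DMSO and at 3.56 and 3.81 FPKM in SF1–8, which gave the highest, 0.13 (SE 0.0962). ATG7, the E1-like enzyme that both conjugation routes use, was at 2.89 and 2.72 FPKM in DMSO and at 3.01 and 2.93 FPKM in SF1–8. The groups of these last 3 did not overlap, and each adjusted p was 0.970 by edgeR's quasi-likelihood fit. Of all genes tested, 20.0% were lower in SF1–8 without overlap and 14.2% were higher. In ATG4B, ATG4C, ATG4D, ATG5, ATG10 and ATG16L1 the groups overlapped, with fold changes between -0.04 and 0.04. The summed level of the 9 genes was 47.7 and 47.4 FPKM in DMSO and 45.3 and 48.3 FPKM in SF1–8.

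SQSTM1, the cargo receptor p62, was the most abundant member in every library, at 28.2 and 27.2 FPKM in DMSO and at 26.3 and 28.3 FPKM in SF1–8. Its fold change was 0.0064 on the log2 scale (SE 0.0684, 95% interval from -0.17 to 0.18), and it made up between 61.1% and 62.7% of the summed level of the 5 cargo receptors. NBR1, which binds ubiquitinated cargo together with SQSTM1, was at 8.32 and 8.14 FPKM in DMSO and at 8.69 and 8.34 FPKM in SF1–8, with fold change 0.08 (SE 0.0778). TAX1BP1 was at 4.72 to 5.68 FPKM, and OPTN, a receptor for mitochondria and bacteria, at 0.386 to 0.486 FPKM. CALCOCO2, also called NDP52, was at 4.28 FPKM in DMSO 1 and between 2.68 and 2.82 FPKM in the other 3 libraries. Its fold change of -0.28 (SE 0.208) was the lowest after TMEM41B and GABARAPL1 and was 0.05 without DMSO 1.

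In the order of mean level over the 4 libraries, 34 of the 37 members were at 1 FPKM or more, and OPTN, MAP1LC3A and ULK2 were below it. The order rests on FPKM, which depends on the length of each assembled entry. Of the 36 pairs of neighbours in this order, 30 had overlapping ranges over the 4 libraries, so that most neighbours were not separated beyond their spread. SQSTM1 was above GABARAPL2 without overlap, and so were ATG2A above ATG9A, UVRAG above WIPI2, WIPI2 above BECN1, ATG14 above PIK3C3 and WIPI1 above OPTN. The order itself was similar in all libraries, and the largest shift between groups was in TMEM41B. TMEM41B ranked 2 of 37 in each DMSO library, and 15 and 14 of 37 in SF1–8 1 and SF1–8 2. Other members moved in single libraries. ATG101 ranked 17, 14, 14 and 23 in DMSO 1, DMSO 2, SF1–8 1 and SF1–8 2. CALCOCO2 ranked 23, 28, 28 and 29 in the same order. GABARAPL1 ranked 32 of 37 in each DMSO library and 34 of 37 in each SF1–8 library.

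The 95% intervals give the sizes of change that remain compatible with these libraries. Of the 35 members tested other than TMEM41B, 33 had a fold change smaller than 0.3 on the log2 scale in size, 33 had a 95% interval within 2-fold in either direction and 29 had one within 1.5-fold. The intervals of the 33 members other than GABARAPL1 and ULK2 lay between -0.89 and 0.76 on the log2 scale, and the groups overlapped in 23 of the 33. Both SF1–8 libraries were below both DMSO libraries in 5 of the 35, where 20.0% of all genes tested had that pattern, and above them in 6 of the 35, where 14.2% had it. In 6 of the 35 the difference between groups was larger than the larger of the differences within groups. These were ULK1, RB1CC1, ATG14, ATG2A, ATG12 and GABARAPL1. In the further entry of ULK1 that was tested, the groups overlapped. The share of all genes tested with this pattern was not computed, so the count does not set these members apart from other genes. The median gap between the libraries of a group was 0.113 on the log2 scale of FPKM in DMSO and 0.102 in SF1–8. DMSO 1 was the highest library in 30.6% of the 36 members tested and in 37.9% of all genes tested. For 9 members the table has more than 1 entry. The log2 fold changes of the further entries that were tested ran from -2.99 to 1.71, both in short unstranded entries of ATG2B, and each had an adjusted p of 0.970 or more by edgeR's quasi-likelihood fit. Of the 37 entries, 5 name other genes as well and 19 overlap another coding gene in GENCODE, and the strand setting of the counting is not given in the sources used here, so reads of such neighbours cannot be told apart.

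The genes around the core machinery were then read from the same fit, in 6 lists that together held 68 genes, 66 of them tested. By the quasi-likelihood test of edgeR (Benjamini-Hochberg adjusted) 0 of the 66 had an adjusted p under 0.05, where 0.042% of all genes tested had one. DESeq2 called 0 as well, where it called 0.652% of all genes for which it gave an adjusted p. By edgeR, 4 of the 66 had an unadjusted p under 0.05, where 4.33% of all genes tested had one. All 4 had higher levels in SF1–8, as 1.78% of all genes did at that p. The median log2 fold change over the 66 was 0.05. FUNDC1, a receptor for the removal of mitochondria, had the smallest p of these. It was at 3.31 and 4.14 FPKM in DMSO and at 5.71 and 6.60 FPKM in SF1–8, 0.74 on the log2 scale (SE 0.199), with an unadjusted p of 0.0130 and an adjusted p of 0.970 by edgeR's quasi-likelihood fit. The other 3 were the mitochondrial protein FKBP8 at 0.30 (SE 0.0968), the lysosomal cholesterol carrier NPC2 at 0.37 (SE 0.143) and the ER-phagy receptor TEX264 at 0.19 (SE 0.0731). These 4 genes were picked out by their p-values. NPC2 and TEX264 share their entries with MIR4709 and RAD54L2.

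Upstream of autophagy, 12 of 13 genes of nutrient control were tested, with a median of 0.03 on the log2 scale and values from -0.23 in MLST8, a subunit of the mTOR complexes, to 0.22 in TFEB, the transcription factor of lysosomal genes. MLST8 was at 7.42, 8.38 and 8.24 FPKM in DMSO 1, DMSO 2 and SF1–8 1 and at 4.99 FPKM in SF1–8 2. TFEB was rare, at 0.263 to 0.463 FPKM. Among 9 other regulators tested, the median was 0.02, with the lowest value, -0.59, in ATG16L2 (SE 0.276) and the highest, 0.46, in the GTPase RAB1A (SE 0.238). ATG16L2 was at 1.29 FPKM in DMSO 1 and between 0.633 and 0.725 FPKM in the other libraries, and RAB1A was at 20.7 FPKM in SF1–8 1 and between 11.5 and 13.4 FPKM in the others. In both, 1 library was set apart from the other 3.

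Downstream, the 13 genes of fusion with the lysosome had a median of 0.09, and the 16 lysosomal proteins had a median of 0.06. STX17, the SNARE of the closed autophagosome, had the highest value of the fusion genes, 1.15 on the log2 scale (SE 0.543), and it came from 1 library. It was at 1.40 and 1.25 FPKM in DMSO, 4.41 FPKM in SF1–8 1 and 1.34 FPKM in SF1–8 2. Without SF1–8 1 the value was 0.04, and without SF1–8 2 it was 1.77 with an adjusted p of 0.0397 by edgeR's quasi-likelihood fit, while over the 12 ways of processing the adjusted p ran from 0.0397 to 1.0. The lowest value was -0.03 in VPS16, a subunit of the HOPS tethering complex, whose entry also names PTPRA. Among lysosomal proteins the values ran from -0.12 in the glucosidase GAA (SE 0.412) to 0.53 in the membrane protein SCARB2 (SE 0.339), which was at 1.49 FPKM in DMSO 1 and between 2.96 and 3.28 FPKM in the others. The 14 mitophagy and ER-phagy receptors had a median of 0.12, and their lowest value was -0.73 (SE 0.399) in RETREG1, a rare transcript at 0.101 to 0.210 FPKM.

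**Figure D4:**
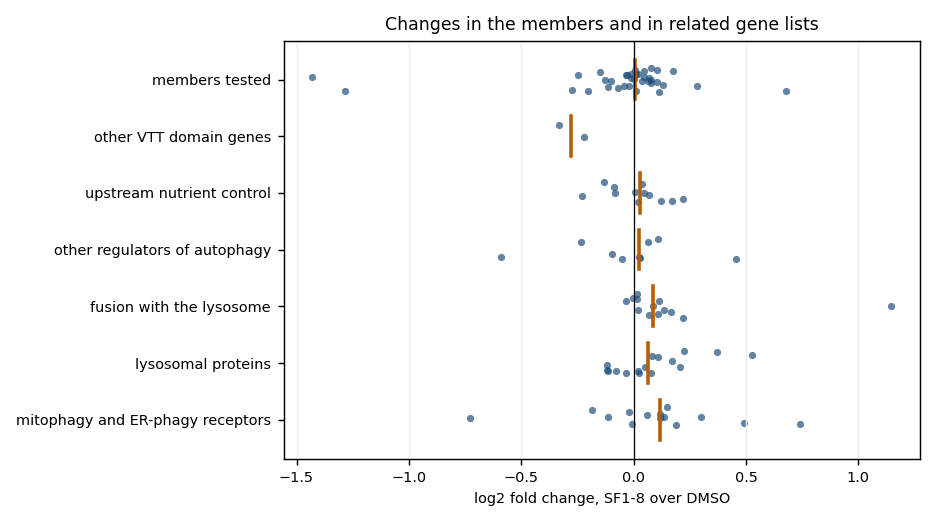
Fold change on the log2 scale, SF1-8 over DMSO, of each tested gene (points, spread vertically at random for legibility) in the members and in 6 related lists, with the median of each as an orange line. The medians lie between -0.28 and 0.12, and the 2 points furthest left are TMEM41B and GABARAPL1.

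The pathway annotation deposited with the table places 129 entries in the KEGG pathway of animal autophagy, 27 of them members. Of the 129, 121 were tested. By the quasi-likelihood test of edgeR (Benjamini-Hochberg adjusted) 0 of the 121 had an adjusted p under 0.05, where 0.042% of all genes tested had one. The median log2 fold change was 0.04. At an unadjusted p under 0.05 there were 3 lower and 3 higher entries among the 121, against 4.33% of all genes tested in either direction, 2.54% lower and 1.78% higher. GABARAPL1 was lower, and so was PIK3R1, a regulatory subunit of class I PI3-kinase, at -0.70 (SE 0.131). The apoptosis inhibitor BCL2 was higher at 1.20 (SE 0.169), as were the catalytic subunit PIK3CB at 0.35 (SE 0.0726) and an entry that joins PIK3R2 with IFI30 at 0.34 (SE 0.0993). The genes named here were picked out by their p-values.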

How the data were processed

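Total RNA from K562-U2AF1S34F cells was depleted of ribosomal RNA and sequenced, in 2 DMSO and 2 SF1–8 libraries, grouped by the sample labels. The authors deposited, for each entry of an assembled annotation, an estimated count and an FPKM value per library, the latter normalized for length and depth. The submitters' processing notes name cutadapt, FastQC, Bowtie2, HISAT2, StringTie and hg38, and versions and strand settings are not given in the sources used here. An FPKM of 0.0001 stands for a count of 0. The 2095 entries that name no gene held 0.372% of the counts and were left out.

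The deposited counts, already whole numbers, were normalized by TMM, filtered by filterByExpr and tested by the quasi-likelihood test of edgeR 4.0.16 in R 4.3.3 over 26167 genes, with Benjamini-Hochberg adjustment and a threshold of 0.05. Levels are given in FPKM, and fold changes were estimated from the counts. The alternatives were DESeq2 1.42.0, upper-quartile factors, no filter, counts divided by 4, a replicate block, limma 3.58.1 on log2(FPKM + 1) and log2(FPKM + 0.1), and leaving out each library. The edgeR fit was tried on simulated counts, with changes larger than those of most members.

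The members, the related lists and the tests were chosen with earlier results of these data known. All members were to be named, with the genes past the threshold and the highest and lowest of each related list, and TMEM41A and TMEM64 always. The genes with a small unadjusted p that are named beside them were added after their values were seen. Motifs were searched in the RefSeq windows of GRCh38.p14, each of 300 bases, beginning 250 bases before a start site and running past it. Values per transcript were not analysed here. 1 tested gene enters the totals but is not reported by name.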

Additional observations from a re-analysis of the deposited data

How the results depend on the processing

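With 2 libraries per group, the test leans on the spread of all genes together, and a change of any size within the interval of a member remains possible. The counts were taken as estimates, and no counting error was computed apart from the fits. The edgeR and DESeq2 fits model them as counts, so their p-values and standard errors include a counting term. The labels do not say whether libraries with the same replicate number were paired. Their deviations from the group means correlated at r = 0.016, which cannot settle this with 2 libraries per group. The number of all genes past the threshold was 11 in the reported fit, 164 with DESeq2, 31 with no filter on low counts, 0 with a replicate block, 0 with limma on log2(FPKM + 1), 0 with limma on log2(FPKM + 0.1), and from 0 (without DMSO 1) to 30 (without SF1–8 1) with a library left out. Beyond TMEM41B, the number of members called was 1 with DESeq2 (GABARAPL1) and 0 in every other setting, the replicate block included. Of the related genes, from 0 to 1 was called with a library left out, the 1 being STX17 without SF1–8 2. The TMEM41B fold change was -1.32 on the log2 scale with limma on log2(FPKM + 1), where the pseudocount draws values toward 0, and within its spread between libraries otherwise.

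For the 47 genes with a value of their own, 457 of 516 values under alternatives kept their direction and side of the threshold, 57 values of 24 genes changed sign and 2 passed the threshold, and each sign change was in a gene that had not passed it. With upper-quartile factors the log2 fold change was -0.0064 for ATG4B, -0.015 for ATG5, -0.0032 for ATG10 and -0.0090 for SQSTM1. With counts divided by 4 it was -0.0041 for ATG4B, -0.011 for ATG5 and -0.0062 for SQSTM1. With limma on log2(FPKM + 1) it was -0.014 for ATG4B, -0.0030 for ATG4D, -0.021 for ATG5, -0.017 for ATG10 and -0.021 for SQSTM1, and on log2(FPKM + 0.1) it was -0.017, -0.0033, -0.022, -0.024 and -0.022 for the same genes. With a library left out, the log2 fold change ran from -0.71 to 2.63 for ULK2, -0.65 to 0.069 for ATG101, -0.071 to 0.055 for BECN1, -0.14 to 0.017 for PIK3C3, -0.075 to 0.017 for WDR45B, -0.084 to 0.028 for ATG2B, -0.011 to 0.15 for ATG9A, -0.077 to 0.10 for ATG4B, -0.24 to 0.19 for ATG4C, -0.12 to 0.18 for ATG4D, -0.10 to 0.12 for ATG5, -0.15 to 0.17 for ATG10. It ran from -0.078 to 0.17 for ATG16L1, -0.14 to 0.11 for MAP1LC3B, -0.18 to 0.32 for GABARAP, -0.035 to 0.055 for SQSTM1, -0.22 to 0.22 for OPTN, -0.024 to 0.23 for TAX1BP1, -0.54 to 0.051 for CALCOCO2, -0.88 to 0.065 for TMEM41A, -0.20 to 0.55 for TFEB, -0.64 to 0.091 for MLST8, -0.063 to 0.0027 for VPS16 and -0.51 to 0.44 for GAA. Why these values moved was not tested. No other reversal was found under the alternatives run, the replicate block included.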
